A study of Rattus norvegicus with 6 samples.

Results

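The vascular endothelial growth factor (VEGF) family, placental growth factor and their receptors were examined in rat retina as 9 genes chosen by name. The ligands were Vegfa, Vegfb, Vegfc and Pgf, the receptor tyrosine kinases were Flt1, Kdr and Flt4, and the co-receptors were Nrp1 and Nrp2. A gene was measured where the annotation of the Affymetrix Rat Gene 2.0 ST array gave it a probe row with no other gene symbol. This held for 8 of the 9 genes, each with 1 such row, among 18166 genes in all. Kdr had no such row in the annotation used and was not analysed here. RNA of 3 Danshen-treated diabetic retina samples was compared with RNA of 3 diabetic retina samples that had received no Danshen. According to the methods, both groups were male SD rats, 5 weeks of age when the study began, which received a high fat diet for 4 weeks and then 30 mg/kg of streptozotocin, a toxin of insulin-producing cells. The Danshen-treated group, called HCDDP in the methods, then received Compound Danshen Dripping Pill (CDDP), which holds Danshen, notoginseng and borneol, at 0.4 g/kg/d over 12 weeks by gavage, and the diabetic group received 0.5% saline. The labels give an age of 17 weeks for both groups, which is less than the times of the methods add up to. No array of a non-diabetic rat was analysed here, so every difference is one between treated and untreated diabetic retina. Whether an array stands for 1 rat is stated in neither the labels nor the methods, so the p-values cover the spread between these samples, which may be technical.

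VEGF-A drives the growth and the permeability of blood vessels, is induced when oxygen is low, and is a main target of treatment in diabetic retinopathy. VEGF-B and placental growth factor bind the receptor FLT1, whereas VEGF-A binds both FLT1 and KDR, the receptor that carries most of its signal in endothelial cells. VEGF-C acts through FLT4 and is best known for the growth of lymphatic vessels. Neuropilins bind some VEGF forms as well as class 3 semaphorins and assist the receptors.

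The question was whether these genes differed between the Danshen-treated and the diabetic retina. The ligands Pgf and Vegfb were lower in the Danshen-treated group, by 1.70-fold and 1.86-fold, and passed the threshold of the methods in limma, which asks for p below 0.05 before adjustment and for a fold change above 1.5. Vegfa lay lower on average but did not pass, and Vegfc, the receptors Flt1 and Flt4 and the co-receptors Nrp1 and Nrp2 differed by less than 0.10 on the log2 scale. In all, 2 of the 8 measured members passed, both lower, beside 3.2% of all genes tested in either direction, 2.28% that were lower and 0.925% that were higher. The methods' t-test called 1 of the 8, Pgf, beside 1.08% of all genes. With the array number as a block, a pairing that no label or method gives, limma called the same 2 members, beside 4.62%. After Benjamini-Hochberg adjustment over all genes, 0 of the 8 passed by limma (adjusted p from 0.782 to 0.966), beside 0.0055% of all genes, and 0 passed by the methods' t-test, beside 0%. By limma 2 of the 8 had an unadjusted p under 0.05, beside 6.05% of all genes. The log2 difference was below 0 for 5 of the 8, beside 51.6% of all genes, and its median was −0.07, beside −0.01 for all genes. In whole retina, fewer cells of a type and less RNA per cell cannot be told apart.

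**Figure D1:**
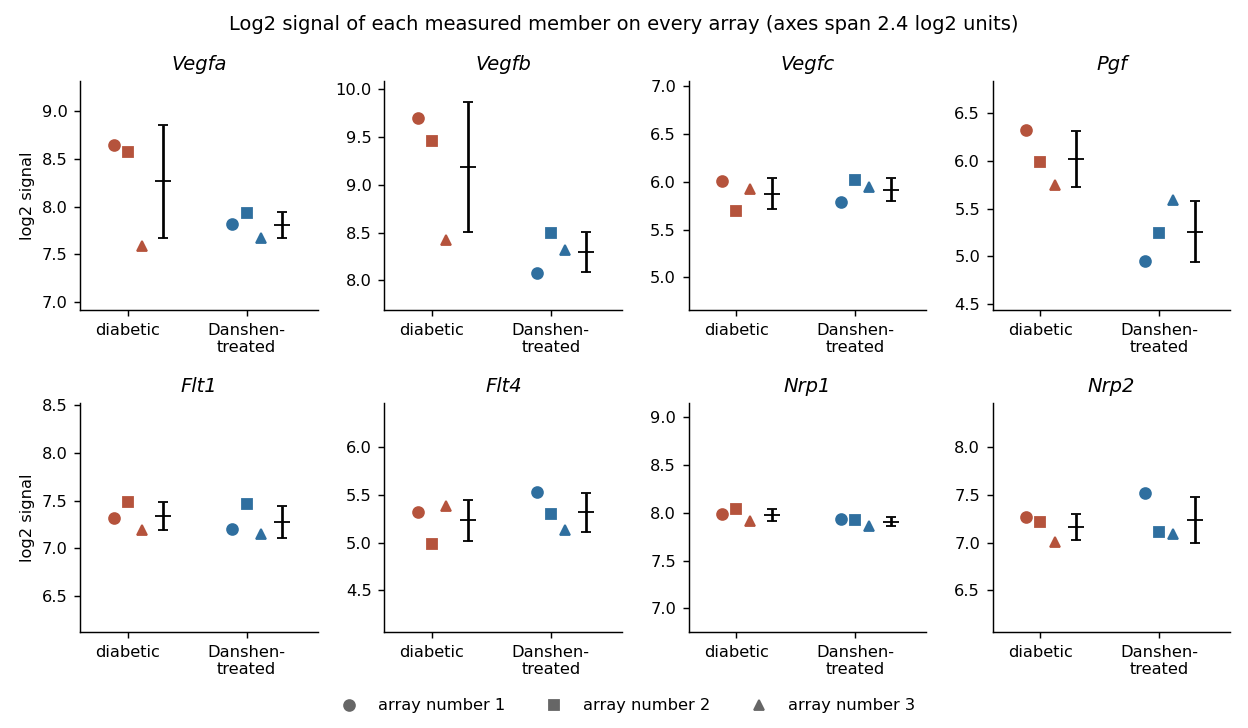
Log2 signal (vertical axes, each spanning 2.4 log2 units) of the 8 measured members on the 3 diabetic and the 3 Danshen-treated arrays, with the marker shape giving the array number and the bar the mean ± SD of a group. Pgf was lower on all 3 Danshen-treated arrays, while diabetic array 3 lay below all Danshen-treated arrays for Vegfa and between them for Vegfb.

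The arrays numbered 3 stood apart from the others. Their signals, from the 10th percentile up to the 90th, spanned 4.48 log2 units in the Danshen-treated and 4.45 in the diabetic group. The Danshen-treated arrays 1 and 2 spanned 4.92 and 4.94, and the diabetic ones spanned 5.19 and 5.16. The labelled tissue, retina, was checked against rod photoreceptor markers, of which all 8 measured lay above the 90th percentile of the signals. So did all 6 measured lens markers and 11 of 12 markers of corneal and scleral stroma, so strong signals were not limited to retinal genes. Of the whole table, 1 gene passed an adjusted p of 0.05, Fabp2, an intestinal fatty acid binding protein gene outside the VEGF family (limma, adjusted p = 0.0365).

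Pgf, which encodes placental growth factor, was the member with the smallest p. Its mean signal was below that of the median gene, with 38.7% of genes weaker, and weak signals were not filtered out. Its log2 signal was 4.95, 5.25 and 5.59 on Danshen-treated arrays 1, 2 and 3, and 6.33, 5.99 and 5.75 on diabetic arrays 1, 2 and 3. Every Danshen-treated array was below every diabetic array, and the arrays numbered 3 lay closest to each other. It was the 1 member that was lower without overlap, beside 4.3% of all genes, and 0 members were higher without overlap, beside 6.43%. The mean was 5.26 ± 0.32 (SD, n = 3) with Danshen and 6.02 ± 0.29 (SD, n = 3) without it. The log2 difference was −0.76 with a standard error of 0.23 and a 95% interval from −1.28 to −0.25 (limma, unadjusted p = 0.00907, adjusted p = 0.782). The methods' t-test gave an unadjusted p of 0.0376, and the two-sided exact permutation test, with 20 ways to divide the 6 arrays, gave 0.10, the smallest p that 3 arrays against 3 allow. Between arrays of the same number, the difference was −1.38, −0.74 and −0.16. The study listed Pgf among its changed genes from the same arrays, so its direction is not independent evidence.

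Vegfb, whose product binds FLT1 and is known for the survival of vascular cells rather than their growth, had the largest difference among the 8 members. Its log2 signal was 8.08, 8.50 and 8.32 on Danshen-treated arrays 1, 2 and 3. It was 9.70 and 9.46 on diabetic arrays 1 and 2 and 8.42 on diabetic array 3. Diabetic array 3 thus lay below Danshen-treated array 2, so the groups overlapped. The mean was 8.30 ± 0.21 (SD, n = 3) against 9.19 ± 0.68 (SD, n = 3), which is −0.89 on the log2 scale (SE 0.32), with a 95% interval from −1.63 to −0.16 (limma, unadjusted p = 0.0226, adjusted p = 0.782). The call was lost in the methods' t-test (unadjusted p = 0.0959) and without Danshen-treated array 1 (−0.78) or 3 (−0.90) or diabetic array 1 (−0.64) or 2 (−0.76). Without diabetic array 3 the difference was −1.28 (limma, adjusted p = 0.0231), but 311 genes in all then passed an adjusted p of 0.05, beside 1 with all arrays. The exact permutation test over all arrays gave 0.20.

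Vegfa, the central vascular growth and permeability factor, showed the same division of the diabetic arrays. Its log2 signal was 7.82, 7.94 and 7.67 on Danshen-treated arrays 1, 2 and 3, and 8.65, 8.57 and 7.59 on diabetic arrays 1, 2 and 3. Diabetic arrays 1 and 2 were above all Danshen-treated arrays, and diabetic array 3 was below all of them. The mean was 7.81 ± 0.13 (SD, n = 3) against 8.27 ± 0.59 (SD, n = 3), which is −0.46 on the log2 scale (SE 0.28), with a 95% interval from −1.11 to 0.19 (limma, unadjusted p = 0.139, adjusted p = 0.784). Vegfa passed the threshold of the methods without diabetic array 3, at −0.80 (limma, unadjusted p = 0.00143, adjusted p = 0.0618). It also passed without both arrays numbered 3, at −0.73, and with array weights, at −0.63. Without diabetic array 3, 1984 genes in all passed this threshold, beside 582 with all arrays, and the count also rose in the other settings in which Vegfa passed.

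The signals of these 3 ligands were set beside the spread of each array. Over the 6 arrays, Pearson's r with this span of the signals was 0.893 for Vegfa, 0.709 for Vegfb and 0.284 for Pgf, and 5.07% of all genes had an r over 0.9. With the first principal component of all genes, which held 44.9% of the variance, r was 0.962 for Vegfa, 0.852 for Vegfb and 0.527 for Pgf. Of all genes, 7.66% had an r over 0.9 with this component. Nrp1, with a log2 difference of −0.07, had an r of 0.853 with the span and 0.874 with the component, above Vegfb on both. Vegfa and Vegfb followed each other at an r of 0.942, and at 0.95 with the group means removed. These values are descriptions over 6 arrays, and the part of the array spread in the differences was not tested.

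**Figure D2:**
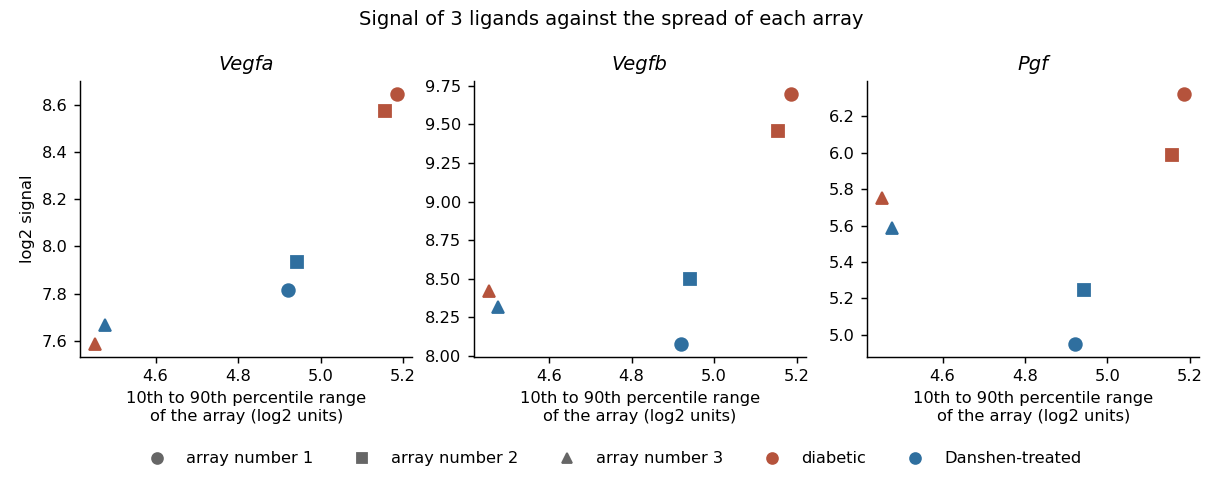
Log2 signal of Vegfa, Vegfb and Pgf (vertical axes) against the span between the 10th and 90th percentiles of all genes on the same array (horizontal axes, log2 units), with colour for the group and marker shape for the array number. Vegfa rises with the span over all 6 arrays (r = 0.893), whereas Pgf has both arrays numbered 3 at the narrowest span and between the other arrays in signal (r = 0.284).

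The promoters of the 3 ligands are shown because Pgf and Vegfb are the members past the threshold and Vegfa, which did not pass, followed Vegfb over the arrays. Each sequence is RefSeq's, of the GRCr8 build, and runs 5′ to 3′ over the 250 bases before the gene's start. Capitals mark the GC box GGGCGG, which transcription factors of the Sp family bind, and the hypoxia response core ACGTG or GCGTG, which hypoxia-inducible factors bind, on either strand. The Pgf window is chr6:110557748-110557997 on the minus strand, that of Vegfb is chr1:213607153-213607402 on the minus strand, and that of Vegfa is chr9:22452604-22452853 on the plus strand.
Pgf: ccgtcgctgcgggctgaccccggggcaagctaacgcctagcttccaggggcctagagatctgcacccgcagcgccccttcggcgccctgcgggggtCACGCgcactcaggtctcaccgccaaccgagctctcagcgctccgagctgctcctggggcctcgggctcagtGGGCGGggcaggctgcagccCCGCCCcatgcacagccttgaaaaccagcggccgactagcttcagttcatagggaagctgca
Vegfb: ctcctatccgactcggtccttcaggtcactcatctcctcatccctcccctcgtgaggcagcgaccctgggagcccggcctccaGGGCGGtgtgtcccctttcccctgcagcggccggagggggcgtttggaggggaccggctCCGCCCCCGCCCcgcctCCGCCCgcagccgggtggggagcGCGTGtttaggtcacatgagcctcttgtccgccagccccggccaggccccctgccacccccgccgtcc
Vegfa: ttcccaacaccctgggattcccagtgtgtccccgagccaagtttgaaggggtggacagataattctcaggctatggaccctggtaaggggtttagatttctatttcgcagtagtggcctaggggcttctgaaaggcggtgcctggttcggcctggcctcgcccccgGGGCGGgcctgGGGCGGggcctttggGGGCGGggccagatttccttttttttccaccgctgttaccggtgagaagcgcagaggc
The Pgf window held 2 GC boxes and 1 hypoxia response core, the Vegfb window 4 and 1, and the Vegfa window 3 GC boxes and 0 cores, and no GC box overlapped a core. RefSeq gives a second start for Vegfa, further into the gene, whose window held neither motif. Of the 9 named genes, all 9 had a window, 7 held a GC box and 6 held a hypoxia response core. Of all 33469 promoter windows of this length, 30.5% held a GC box and 36.7% a core, and G and C made up 52.8% to 76% of the members' windows. A match of letters is a description and not evidence of binding, and no match says only that these letters are not in this window.

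The remaining ligands differed little. Vegfc, the ligand of FLT4, had a log2 signal of 5.79, 6.02 and 5.95 on Danshen-treated arrays 1, 2 and 3, and of 6.004, 5.69 and 5.93 on diabetic arrays 1, 2 and 3. The groups overlapped, with a log2 difference of 0.04 and a 95% interval from −0.34 to 0.42 (limma, adjusted p = 0.966). The interval of the array signal lies within a fold change of 1.5 in either direction, at a signal with 43.3% of genes weaker. The sign turned without Danshen-treated array 2 (−0.0077) or diabetic array 2 (−0.048). Vegfd, the other lymphatic ligand of the family, which was not among the 9 genes, had a log2 difference of −0.08 with a 95% interval from −0.50 to 0.34 (limma, adjusted p = 0.938), and of 0.046 without diabetic array 1.

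Neither measured receptor differed beyond the spread between arrays. Flt1, the receptor of VEGF-A, VEGF-B and placental growth factor, had a log2 signal of 7.21, 7.46 and 7.15 on Danshen-treated arrays 1, 2 and 3, and of 7.32, 7.49 and 7.20 on diabetic arrays 1, 2 and 3. In both groups array 2 was the highest and array 3 the lowest, and the groups overlapped. Its log2 difference was −0.06 with a standard error of 0.17 and a 95% interval from −0.45 to 0.33 (limma, adjusted p = 0.951). Flt4, the receptor of VEGF-C, was at 5.53, 5.298 and 5.13 on Danshen-treated arrays 1, 2 and 3, and at 5.32, 4.99 and 5.38 on diabetic arrays 1, 2 and 3. The groups overlapped, and the log2 difference was 0.09 with a 95% interval from −0.34 to 0.52 (limma, adjusted p = 0.930). Both intervals of the array signal lie within a fold change of 1.5 in either direction. Flt4 was weak, with 32.4% of genes weaker, and whether its row could show such a change in RNA was not tested. The sign turned for Flt1 without diabetic array 2 (0.015), and for Flt4 without Danshen-treated array 1 (−0.019) or diabetic array 2 (−0.034).

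The co-receptors also overlapped between the groups. Nrp1 varied least of the 8 members, with a log2 signal of 7.94, 7.93 and 7.86 on Danshen-treated arrays 1, 2 and 3, and of 7.98, 8.04 and 7.91 on diabetic arrays 1, 2 and 3. Its SD was 0.04 in the Danshen-treated and 0.06 in the diabetic group, and its log2 difference was −0.07 with a 95% interval from −0.41 to 0.27 (limma, adjusted p = 0.930). The sign turned after quantile normalization, at 0.014. Nrp2 was at 7.52, 7.11 and 7.09 on Danshen-treated arrays 1, 2 and 3, and at 7.27, 7.21 and 7.005 on diabetic arrays 1, 2 and 3. Danshen-treated array 1 was the highest of the 6, and the log2 difference was 0.08 with a 95% interval from −0.34 to 0.50 (limma, adjusted p = 0.940). The sign turned without Danshen-treated array 1 (−0.062) or diabetic array 3 (−0.0019). Whether the ligands and the receptors differed from each other in their response was not tested.

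**Figure D3:**
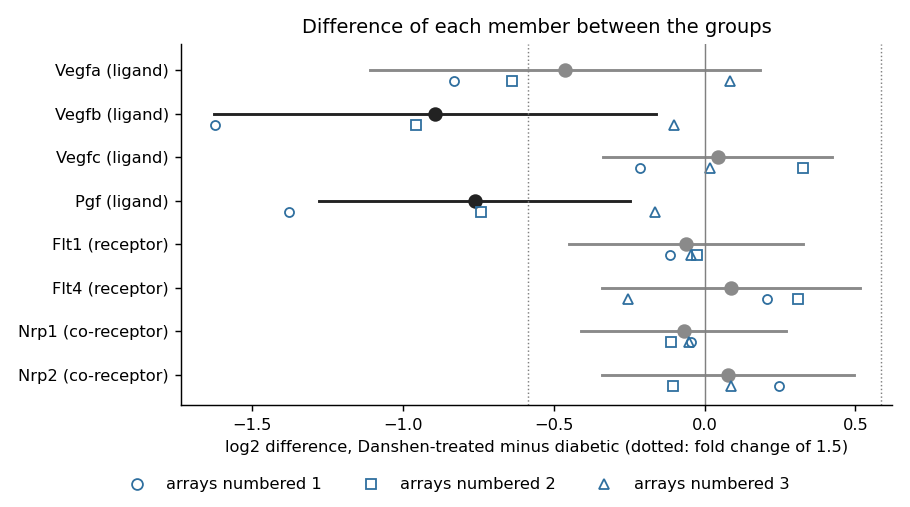
Log2 difference, Danshen-treated minus diabetic (horizontal axis), for each measured member, with 95% intervals from limma and open markers for the differences between arrays of the same number. Black marks the 2 members past the threshold of the methods, Vegfb and Pgf, and the dotted lines a fold change of 1.5.

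**Figure D4:**
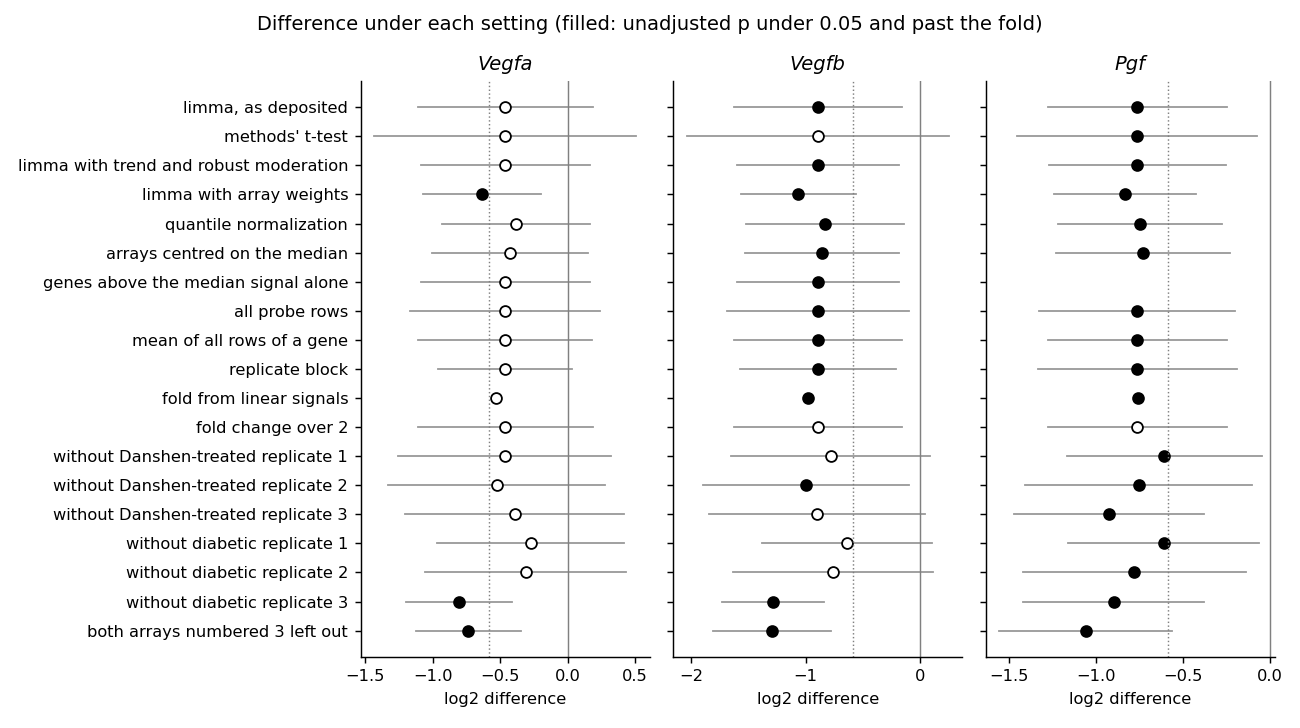
Log2 difference of Vegfa, Vegfb and Pgf (horizontal axes) under each setting tried, with 95% intervals, filled where the threshold of that setting was passed. Pgf stayed filled under every setting that measured it except a fold change over 2, whereas Vegfb and Vegfa changed with the arrays used.

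The genes whose signals over the 6 arrays were most like a member's were named by Pearson's r, as a description. For Pgf they were Or4f60, Slc2a13 and Car15, at r of 0.981, 0.977 and 0.977. For Vegfa they were Csrnp2, Tmem185a and Cited1 (0.999, 0.998 and 0.997), and for Vegfb they were Foxj2, Cmpk2 and Letm2 (0.998, 0.997 and 0.997). An r over 0.95 was reached with 542 genes for Vegfa, 352 for Nrp1 and 211 for Vegfb. The other members had fewer, with 63 for Nrp2, 54 for Flt1, 37 for Flt4, 21 for Pgf and 12 for Vegfc. The count for a typical gene was not taken, so whether these numbers are high or low for 6 arrays was not tested.

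In the PDGF family, which is related to the VEGF ligands in structure and acts on pericytes and glia, Pdgfa and the pericyte receptor gene Pdgfrb were lower at the threshold of the methods. They were 2 of the 7 measured genes of a list that also held Vegfd, with 0 higher and a list median of −0.25, beside 2.28% lower and 0.925% higher over all genes. Pdgfrb was at 7.64, 7.56 and 7.10 on Danshen-treated arrays 1, 2 and 3, and at 8.27, 7.77 and 8.09 on diabetic arrays 1, 2 and 3, without overlap. Its log2 difference was −0.61 with a standard error of 0.21 (limma, adjusted p = 0.782). It lost its call without Danshen-treated array 3 (−0.44) or diabetic array 1 (−0.50), without both arrays numbered 3 (−0.42), in the methods' t-test (unadjusted p = 0.0523), with array weights (−0.42), after quantile normalization (−0.55) and after centring on the median (−0.58). Pdgfa, which encodes a ligand of PDGFRA, a receptor of retinal astrocytes, differed by −0.66 on the log2 scale (SE 0.27) (limma, adjusted p = 0.782) and overlapping arrays. It lost its call in the methods' t-test (unadjusted p = 0.118), over all probe rows and without Danshen-treated array 2 (−0.64) or 3 (−0.54) or diabetic array 1 (−0.48) or 2 (−0.55).

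Other genes of VEGF signalling were called at shares near those of all genes, 2.28% lower and 0.925% higher. Of 37 measured genes of signal transduction below the receptors, 1 was lower and 0 were higher, with a median of 0.09. Without regard to the threshold, 8 of the 37 had all Danshen-treated arrays above all diabetic arrays, beside 6.43% of all genes, and 0 had them all below, beside 4.3%. The smallest p in the list was that of Ppp3cb, which encodes a catalytic subunit of calcineurin, at 0.57 (limma, unadjusted p = 0.00626, adjusted p = 0.782), under the fold change of 1.5. Its log2 signal was 9.58, 9.63 and 9.602 on Danshen-treated arrays 1, 2 and 3, and 8.88, 9.18 and 9.04 on diabetic arrays 1, 2 and 3. The others were Ppp3r1, the regulatory subunit gene of calcineurin, its target Nfatc2, Shc2, Plcg1, Pik3r2, Shb and Map2k1, at 0.27 to 0.44, and these 8 were named after their values were seen. The gene called lower was Ptgs2, which encodes the inducible cyclooxygenase, at −0.78 with a standard error of 0.29 (limma, adjusted p = 0.782), and its arrays overlapped. Its call was lost in the methods' t-test (unadjusted p = 0.0910) and without Danshen-treated array 1 (−0.62) or 3 (−0.81) or diabetic array 1 (−0.71) or 2 (−0.56). Of 22 genes that VEGF induces or that mark tip and stalk cells of growing vessels, 1 was lower and 0 were higher, with a median of 0.15. Without overlap, 1 of the 22 was higher, beside 6.43% of all genes, and 1 was lower, beside 4.3%. The smallest p among the 22 was that of Rcan1, an inhibitor of calcineurin, at 0.48 (limma, unadjusted p = 0.0116). Rcan1 did not reach the fold change, and all Danshen-treated arrays were above all diabetic arrays. Rcan1 too was named after its values were seen. The gene called lower at the threshold was Nr4a1, an immediate early gene, at −0.95 with a standard error of 0.36 (limma, adjusted p = 0.782), again with overlap. Its call was lost in the methods' t-test (unadjusted p = 0.113) and without Danshen-treated array 2 (−0.98) or 3 (−0.61) or diabetic array 1 (−0.76) or 2 (−0.85).

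The lists around oxygen sensing and vessel guidance held 0 genes past the threshold of the methods in limma. This was the case for 9 hypoxia-inducible factors and regulators (median −0.07), 19 of their targets (median 0.09), 11 semaphorins, plexins and other partners of the neuropilins (median −0.04), 5 genes of the angiopoietin system (median −0.05) and 10 secreted inhibitors of angiogenesis (median 0.08). The gene with the smallest p in each list was Hif1an, an inhibitor of hypoxia-inducible factor, at 0.48 (limma, unadjusted p = 0.0258), Ddit4, a stress-induced regulator of growth signalling, at 0.47 (0.0166), the repulsive guidance gene Sema3a at −0.32 (0.158), the TEK ligand gene Angpt2 at −0.19 (0.280), and the endothelial inhibitor gene Vash1 at 0.37 (0.0727). For Hif1an and Ddit4, all 3 Danshen-treated arrays were above all diabetic arrays. Higher without overlap were 2 of the 9 factors and regulators, 2 of the 19 targets and 0 in the other lists, beside 6.43% of all genes. Lower without overlap were 1 of the 19 targets, 1 of the 11 neuropilin partners, 1 of the 10 inhibitors and 0 in the other lists, beside 4.3%. Hif1an passed the fold change without Danshen-treated array 3, at 0.59, without both arrays numbered 3, at 0.60, and with array weights, at 0.61.

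**Figure D5:**
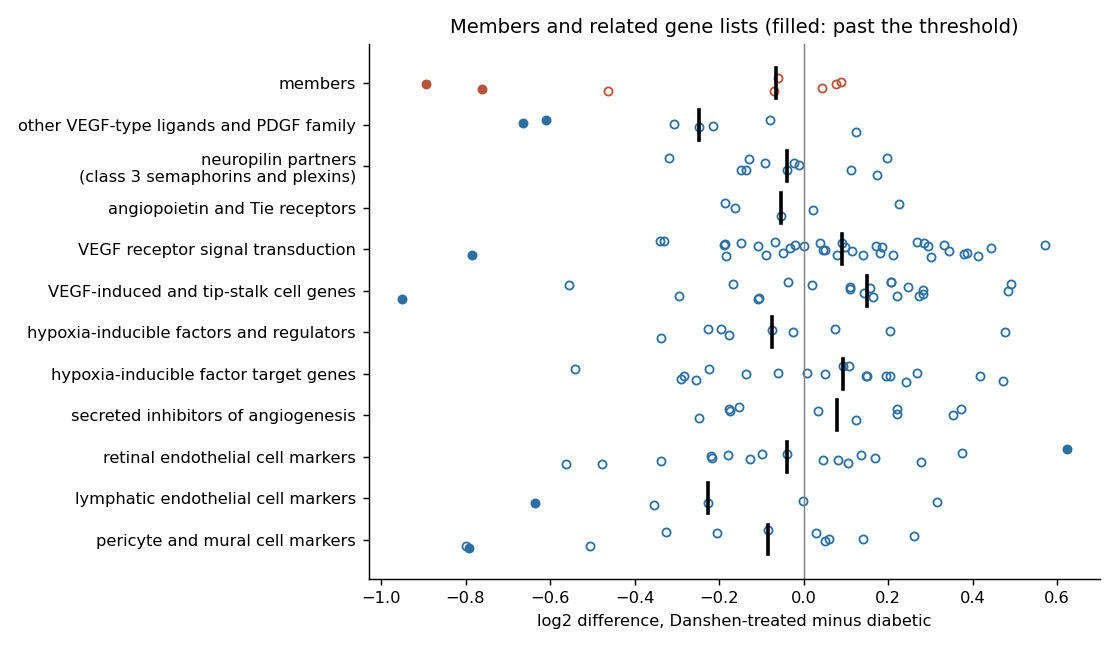
Log2 difference, Danshen-treated minus diabetic (horizontal axis), of the 8 measured members and of the measured genes of 11 related lists, 1 point per gene, filled where the threshold of the methods was passed, with a black bar at the list's median. The medians lie between −0.25 and 0.15, and the members past the threshold, Vegfb and Pgf, are both on the lower side.

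Markers of the cells that carry the receptors were set beside the members. Of 17 endothelial markers, 0 were lower, beside 2.28% of all genes, and 1, Egfl7, was higher, beside 0.925%, with a median of −0.04. Without regard to the threshold, 9 of the 17 lay below 0 and 8 above. Without overlap, 2 of the 17 were lower, beside 4.3% of all genes, and 1 was higher, beside 6.43%. The summed signal of the list was 1635 to 1903 on the Danshen-treated arrays and 1648 to 2021 on the diabetic arrays. Egfl7, which encodes a protein that endothelial cells secrete, was at 6.42, 6.59 and 6.54 on Danshen-treated arrays 1, 2 and 3, and at 6.07, 5.70 and 5.91 on diabetic arrays 1, 2 and 3, without overlap. Its log2 difference was 0.62 with a standard error of 0.17 (limma, adjusted p = 0.782), and it did not reach the fold change once diabetic array 2 was left out (0.53). Of 11 pericyte and mural cell markers, which did not include Pdgfrb, 1 was lower and 0 were higher. The list had a median of −0.08 and a summed signal of 2501 to 3847 against 2752 to 4591. Without overlap, 1 of the 11 was lower, beside 4.3% of all genes, and 1 was higher, beside 6.43%. With the array number as a block 2 were lower, Vtn and Anpep, an aminopeptidase gene. The gene lower without the block was Vtn, which encodes vitronectin and is used as a marker of pericytes, at −0.79 with a standard error of 0.24 (limma, adjusted p = 0.782). Egfl7 and Vtn stand among the genes that the study listed from the same arrays, so their directions are not independent evidence. Of 5 genes listed as lymphatic markers, 1 was lower, beside 2.28% of all genes, with a median of −0.23. It was Lyve1, which encodes a hyaluronan receptor, and its call was lost without any 1 of the Danshen-treated arrays or without diabetic array 1, which left 0. Whether the signal of these 5 genes came from lymphatic cells was not tested, so the list is not a measure of such cells.

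Markers of other tissues also differed between the groups. The counts of these lists stand beside 2.28% of all genes called lower and 0.925% called higher. Of 11 measured markers of intestinal epithelium, 9 were lower in the Danshen-treated group, with a median of −1.198 and a summed signal of 249.9 to 281 against 508 to 961. The median deviation of that list from the mean of the 6 arrays was −0.58, −0.62 and −0.46 on Danshen-treated arrays 1, 2 and 3, and 0.96, 0.49 and 0.14 on diabetic arrays 1, 2 and 3. On the diabetic arrays Pgf, Vegfa and Vegfb had the same order as this list, and on the Danshen-treated arrays none of the 3 did. Of 12 markers of corneal and scleral stroma, 5 were lower (Kera, Prelp, Fmod, Chad and Mfap4), with a median of −0.45 and a summed signal of 13912 to 16500.2 against 18953.5 to 19925. All 5 stand in the study's own lists from the same arrays. So do Fabp1, Fabp2, Si, Reg3b, Reg3g, Guca2a and Cdhr2 of the intestinal list. Both lists were chosen with these results known. Their counts are thus not independent evidence, and the shares of all genes are no fair background for them. Of 11 markers of retinal pigment epithelium and choroid, 0 passed, with a median of −0.24, and of 11 markers of Muller glia, 1 was lower, Clu, which encodes clusterin, with a median of −0.25. Among 11 microglial markers 1 was higher, the chemokine receptor gene Cx3cr1, and 0 were lower. Against the direction of Cx3cr1, 8 of the 11 lay below 0 and 3 above, with a median of −0.12. Among the markers of rods, astrocytes, ganglion cells and lens 0 passed, with medians of −0.27, −0.19, −0.16 and −0.19. All 9 ganglion cell markers lay below 0, as did 6 of 8 rod, 5 of 6 lens and 2 of 4 astrocyte markers, beside 51.6% of all genes. So did 10 of 11 pigment epithelium and choroid, 8 of 11 Muller glia, 10 of 12 stroma and 11 of 11 intestinal markers. Lower without overlap were 2 rod, 3 Muller glia, 1 pigment epithelium and choroid, 1 lens, 7 stroma and 9 intestinal markers, beside 4.3% of all genes. Higher without overlap were 1 rod, 1 Muller glia and 1 microglial marker, beside 6.43%. The genes named in these lists, Lyve1 and Fabp2 were chosen after their values were seen. The part of these cell types in the values of the VEGF family was not tested.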

How the data were processed

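Gene expression was measured in 3 Danshen-treated and 3 diabetic retina samples with Affymetrix Rat Gene 2.0 ST arrays. The scans were analysed by the authors with Expression Console Software 1.41, and the deposited table holds 1 log2 signal per array for 36685 probe rows. Their background correction, normalization and summarisation were not given in the sources used here, and nothing further was applied. The annotation named a single gene symbol for 18511 of these probe rows and several for 575, while 17599 are unnamed here. The row with the highest mean was kept per gene, which left 18166 genes, with no filter on weak signals. The number of arrays limits the precision.

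Groups were compared with limma 3.58.1 in R 4.3.3 (lmFit, eBayes), with Benjamini-Hochberg adjustment over all genes, and the script was tested on simulated data. The threshold of the methods was p under 0.05 without adjustment together with a fold change over 1.5. Exact two-sided permutation tests used the 20 assignments of the arrays. The 95% intervals are limma's. Summed signals of lists were taken on the linear scale. No label or method pairs the arrays. With group means removed, the correlation of equally numbered arrays was 0.274, 0.292 and 0.445 over all genes. Between unequal numbers it ran from −0.351 to 0.0643, and removing group means makes these values depend on each other. The number was also fitted as a block, a choice that thus came from these same data. Further alternatives were the methods' t-test, trended and robust moderation, array weights (statmod 1.5.0), arrays centred on the median or quantile normalized, genes above the median signal, all probe rows, the mean of a gene's rows, a fold from linear signals, a fold change over 2, each array left out in turn, and both arrays numbered 3 left out.

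The members and the 20 gene lists, written by hand, were chosen with earlier results of these data known. Named were all members, Vegfd, the genes of a pathway, endothelial or pericyte list past the threshold (up to 4, or the 1 with the smallest p), and the 3 genes most like a member by Pearson's r, of which those of Pgf, Vegfa and Vegfb are given. Promoters came from RefSeq's GRCr8 annotation. Python 3.11.15 with matplotlib 3.10.9 and pandas 2.3.3 drew the figures.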

Additional observations from a re-analysis of the deposited data

How the results depend on the processing

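With 3 arrays in each group, 1 array could move the counts. The 582 genes past the threshold of the methods became 196 by the methods' t-test, 1362 with array weights, 381 among genes above the median signal, 1898 over all probe rows, 90 at a fold change over 2, and 1482 without both arrays numbered 3, and ran from 323 to 1984 with 1 array left out (323 without Danshen-treated array 3, 361 and 352 without diabetic arrays 1 and 2, 1984 without diabetic array 3). The 1 gene past an adjusted p became 0 by the methods' t-test, among genes above the median signal and over all probe rows, 3 with array weights, 7 without both arrays numbered 3, and 0 to 311 with 1 array left out (311 without diabetic array 3). The 2 members past the threshold became 1 by the methods' t-test, 1 among genes above the median signal, where Pgf was not tested, and 0 at a fold change over 2, and ran from 1 to 3 with 1 array left out. The 23 list genes past it became 11 above the median signal and 7 at a fold change over 2, and ran from 17 to 36 (36 without diabetic array 3). Without diabetic array 3, or without Danshen-treated array 1, 3 pericyte markers, 2 endothelial markers and 1 hypoxia-inducible factor target passed. The log2 differences with 1 array left out ran from −0.92 to −0.61 for Pgf, −1.28 to −0.64 for Vegfb, −0.80 to −0.27 for Vegfa, −0.048 to 0.11 for Vegfc, −0.16 to 0.015 for Flt1, −0.034 to 0.18 for Flt4, −0.10 to −0.04 for Nrp1, −0.062 to 0.15 for Nrp2 and −0.19 to 0.046 for Vegfd, so that the sign turned for Vegfc, Flt1, Flt4, Nrp2 and Vegfd, and quantile normalization turned that of Nrp1 (0.014). Vegfa passed with array weights (−0.63) and without both arrays numbered 3 (−0.73), Vegfb lost its call by the methods' t-test (−0.89), and at a fold change over 2 neither Vegfb (−0.89) nor Pgf (−0.76) passed. The causes were not tested, apart from the stricter fold and the smaller sets of genes and arrays. With the replicate number as a block, 840 genes and 2 members passed the threshold and 1 gene an adjusted p, the differences of the members were the same by construction, and the call of no member changed, while 2 pericyte markers passed in place of 1. The adjusted p of Pgf ran from 0.0939 to 0.9997 over its alternatives, that of Vegfb from 0.0231 to 0.9997, and that of Vegfa from 0.0618 to 0.9997.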
